A study of Mus musculus with 6 samples.

Results

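The genes described here were 39 interferon-stimulated genes, a list given by symbol with no measured value in the rule that chose it. Their expression was measured by bulk RNA-seq in regulatory T cells (Tregs, Foxp3-expressing CD4+ cells that hold immune responses in check) from skin and from skin-draining lymph nodes (SDLNs). All 39 were found among the 49315 genes of the count table, and 38 passed the filter on low counts that left 13572 genes to test. Ifi44 did not pass: its only count was 1, in SDLN Tregs A.

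There were 6 libraries, 3 for each tissue, all from 9-day-old mice of the Foxp3-GFP genotype, in which a green fluorescent protein marks cells that express Foxp3. Each sample held cells pooled from 3 biological replicates, and live CD45+ CD4+ Foxp3-EGFP+ cells were sorted after CD45+ cells had been enriched on beads. The labels name no treatment and give every sample the same batch number, so tissue was the only difference between the groups that the labels give. The study used the comparison to look for genes of ligands with higher expression in skin Tregs.

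Interferons are secreted antiviral cytokines. Interferon-alpha and interferon-beta signal through the receptor chains Ifnar1 and Ifnar2 to a complex that contains Irf9 and binds the interferon-stimulated response element (ISRE), whereas interferon-gamma signals through Ifngr1 and Ifngr2 to factors that bind the gamma-activated site (GAS). The genes induced in this way encode proteins that sense viral nucleic acids, block viral entry and replication, attack the membranes around intracellular microbes, or adjust the signal itself, and many T cells express some of them without infection.

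Depth and gene detection differed between the tissues, whose libraries are named A, B and C and given in that order wherever 3 values stand together. Library totals were 3748669 to 11741784 counts in skin and 47243498 to 116158706 counts in SDLN, and 2911 to 5902 genes were over 3 counts in the skin libraries against 17584 to 19318 in the SDLN libraries. A library with 0 counts of a gene may still hold the equivalent of 3, or 0.800, 0.255 and 0.332 CPM (counts-per-million, relative to the library total) in skin libraries A, B and C, and values of 3 counts or fewer are described as at the floor. Reads copied from 1 molecule were not told apart, so this floor covers counting error only. Foxp3, the gene behind the sort, had 0, 330 and 1 counts in skin libraries A, B and C, whereas the summed level of 5 Treg markers was 3209 to 5681 CPM in skin and 3090 to 4052 CPM in SDLN. The summed level of 10 pan T cell markers was lower in skin, at 3718 to 6724 CPM against 9146 to 11184 CPM in SDLN, without overlap. None of them passed the test. Cd4, also used in the sort, had 0, 1861 and 2 counts in skin libraries A, B and C, whereas Cd28 was at 531 to 1405 CPM in skin and 365 to 450 CPM in SDLN. Of 17 tested myeloid markers, 14 were called higher in skin, while Itgam was at 0 in every skin library. The sum of all 18 listed was 23633 to 36538 CPM in skin against 655 to 884 CPM in SDLN. Most of it was Cd74, at 26833, 17637 and 18403 CPM in skin and 372, 296 and 599 CPM in SDLN. Of 6 markers of plasmacytoid dendritic cells, known as strong producers of interferon, 5 were at the floor throughout skin, with Siglech, Klk1, Cox6a2 and Ccr9 at 0, although Klk1 and Cox6a2 were under 1 CPM in SDLN as well. The other, Tcf4, was at 0, 109 and 131 CPM in skin against 5.75 to 9.85 CPM in SDLN. The part of other cells in the values of the interferon-stimulated genes was not tested, and in bulk samples fewer cells of a type and less RNA per cell cannot be told apart.

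Interferon-stimulated genes were present in all libraries, but skin libraries held them in an uneven way. In the SDLN libraries, 38 members were over 3 counts in each library, against 14, 18 and 15 in skin libraries A, B and C. With all libraries drawn down to 3748669 counts, 37 members were over 3 counts in each SDLN library, and 14, 18 and 14 in the skin libraries. Of the 39 members, 13 were at the floor throughout skin (in all 3 libraries), 11 were over it in 1 skin library, 9 in a pair of them and 6 in all 3. The members over the floor in all 3 skin libraries were Igtp, Samhd1, Ifi35, Ifi27l2a, Dtx3l and Ifitm3. They made up 15.8% of the 38 tested members, beside 12.1% of all genes tested. At the other end, 12 tested members (31.6%) were at the floor throughout skin, beside 43.3% of all genes tested. Members over the floor in 1 skin library alone were Oasl2, Usp18 and Ddx58 in skin Tregs A, Ifit2, Irf9, Oas1a, Xaf1, Zbp1 and Gbp2 in skin Tregs B, and Rtp4 and Parp14 in skin Tregs C.

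**Figure D1:**
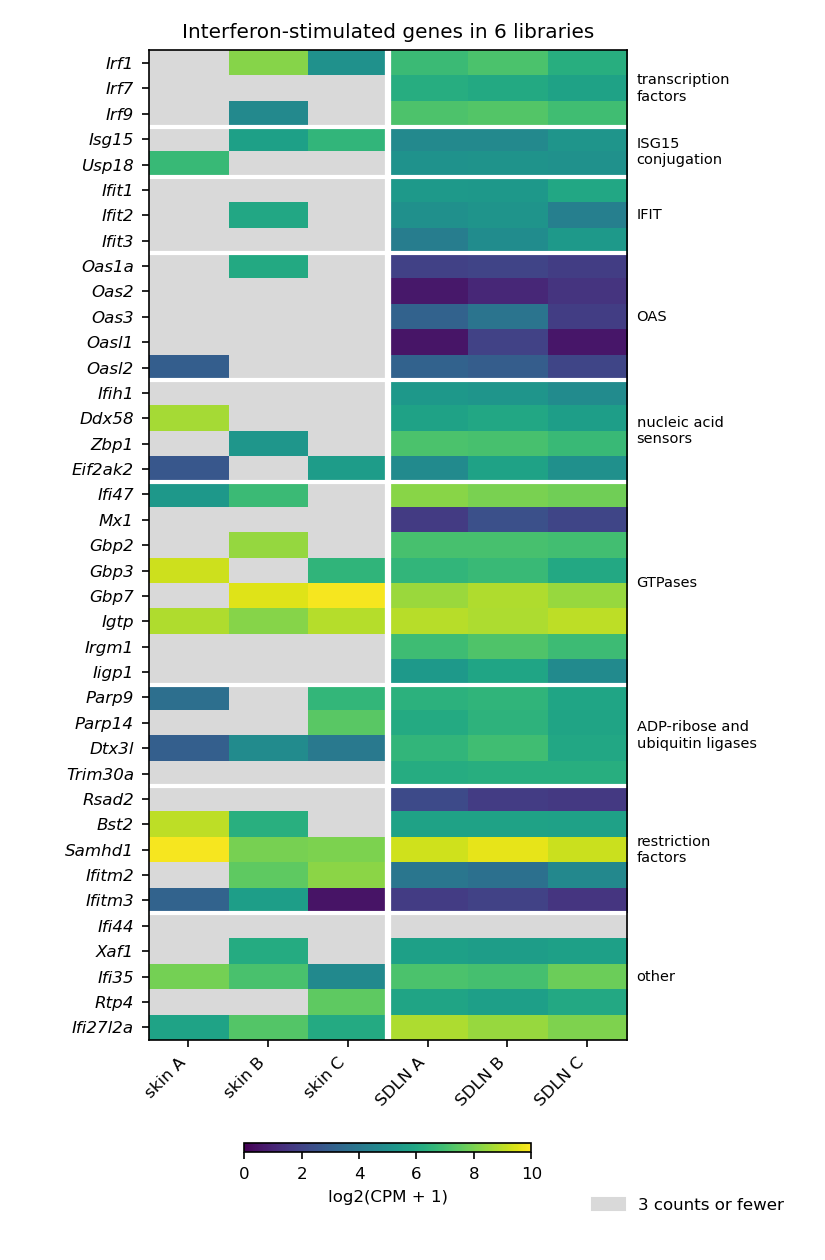
Heat map of log2(CPM + 1) of the 39 interferon-stimulated genes (rows, grouped by role) in the 6 libraries (columns), with grey for 3 counts or fewer. The SDLN columns are filled for 38 genes each, whereas 14, 18 and 15 genes are coloured in skin libraries A, B and C, and 6 genes are coloured in all 3 skin columns.

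Where a member was seen in skin, its level was often outside the SDLN range in either direction. Of 114 skin values (38 tested members in 3 libraries), 67 (58.8%) were at the floor, beside 66.8% of the skin values of all genes tested. Among the 47 others, 23 lay above all SDLN libraries, 18 below all of them and 6 within their range. These were 48.9% above and 38.3% below the SDLN range, beside 53.4% and 31.4% of the values over the floor for all genes tested. The median coefficient of variation of the members (the SD as a percentage of the mean) was 22.5% over SDLN libraries and 147% over skin libraries, beside 25.2% and 168% for all genes tested. Igtp, at 24.0%, had the lowest coefficient of variation in skin.

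Detection of the members was also set beside that of all tested genes of similar SDLN abundance. Among genes with an SDLN mean of 100 CPM and over, 11 members and 2336 genes in all, skin libraries A, B and C held 45.5%, 90.9% and 54.5% of the members and 48.1%, 82.2% and 76.9% of the genes. Between 10 and 100 CPM, with 19 members, the shares were 36.8%, 31.6% and 42.1% of the members and 17.3%, 40.2% and 34.9% of the 6329 genes. Between 1 and 10 CPM, with 8 members, they were 25%, 25% and 12.5% of the members and 11.25%, 21.9% and 19.2% of the 3857 genes. The members were thus above the share of all genes in some skin libraries and below it in others. Irgm1 was the only member of the highest band at the floor throughout skin (1 of 11, or 9.09%, beside 6.59% of all genes of that band).

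**Figure D2:**
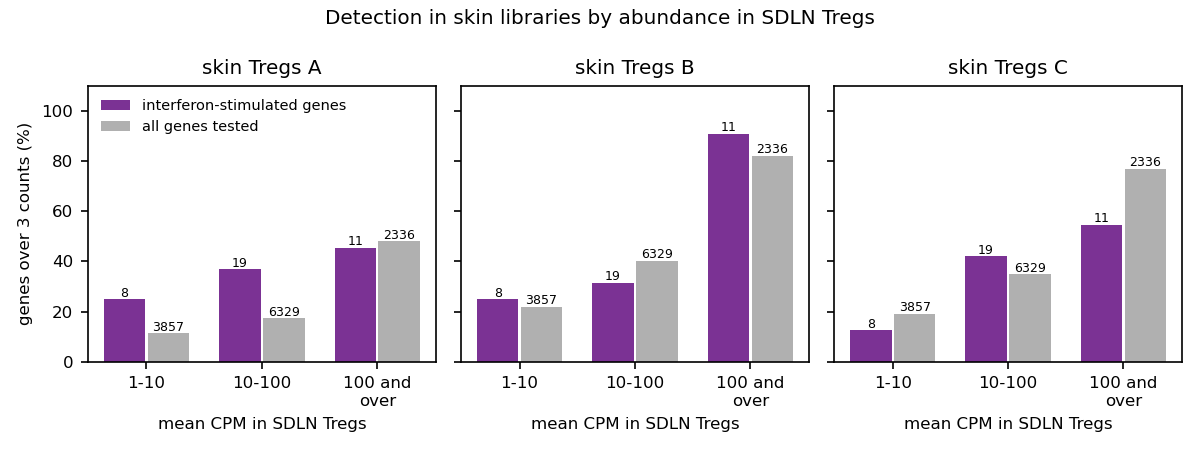
Percentage of genes over 3 counts (vertical axis) in skin libraries A, B and C by the mean CPM of the gene in SDLN Tregs (horizontal axis), for the interferon-stimulated genes (purple) and all genes tested (grey). Numbers above the bars are numbers of genes. In the highest band the members stand at 45.5%, 90.9% and 54.5%, beside 48.1%, 82.2% and 76.9% of all genes.

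The summed level of the 39 genes was 3376, 2953 and 2786 CPM in skin libraries A, B and C and 4009, 4250 and 3609 CPM in the SDLN libraries. Mean sums were 3038 ± 304 and 3956 ± 324 CPM (SD, n = 3 each), a ratio of 0.768 (skin over SDLN), and all skin sums lay below all SDLN sums. In skin the sum came from fewer genes. The 5 highest members made up 85.8%, 64.3% and 76.9% of it in skin libraries A, B and C and 53.5% to 55.3% in SDLN, and 90% of the sum was reached with 6, 12 and 9 members in skin libraries A, B and C and with 19 or 20 in SDLN. The leading member was Samhd1 in all SDLN libraries and in skin Tregs A, where it made up 27.5% of the sum, and Gbp7 in skin Tregs B and C, at 24.7% and 33.2%. Without 8 members that share 1% or more of their 100-base stretches with other genes (Ifit1, Ifit3, Oas1a, Rtp4, Gbp7, Igtp, Trim30a and Ifitm2), the ratio was 0.643.

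**Figure D3:**
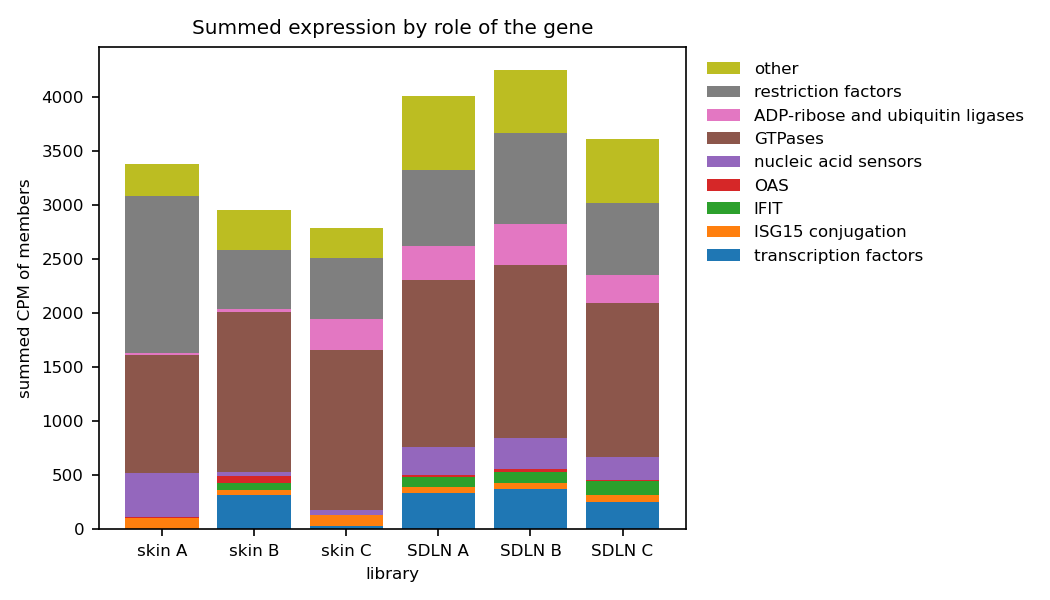
Summed CPM of the interferon-stimulated genes in each library (vertical axis, from 0), stacked by role of the gene. Skin sums reach 2786 to 3376 CPM and SDLN sums 3609 to 4250 CPM, and GTPases form the largest block in every library but skin Tregs A, where restriction factors do.

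In the test across all 13572 genes (edgeR, adjusted p under 0.05), 11 of 38 members (28.9%) were called higher in SDLN Tregs, beside 45.3% of all genes tested. No member was called higher in skin Tregs, beside 1.04% of all genes. None reached an unadjusted p under 0.05 in that direction either, while DESeq2 called 1 member higher in skin (Ifitm3) and limma voom 0. All 11 called members were at the floor in every skin library, as were 94.4% of all genes called higher in SDLN. The median log2 fold change (skin over SDLN) was -0.92 over the members and -2.21 over all genes tested, and with every gene at 0 counts in skin set to the floor it was -0.92 and -1.34. Values were below 0 in 27 members (71.1%), beside 71.3% of all genes. Groups did not overlap, with SDLN higher, in 17 members (44.7%), beside 53.6% of all genes, and in no member with skin higher, beside 2.39%. Of those 17 members, 12 were at the floor throughout skin. The others were Ifi47, Irf9, Zbp1, Dtx3l and Ifi27l2a, and none of these passed the test. Counts of calls moved with single libraries: 17 members were called higher in SDLN without skin Tregs B, and 9 without SDLN Tregs B or C.

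The sequences upstream of 4 members are shown because these genes differed in how many skin libraries held them. Igtp was over the floor in all 3, Gbp7 and Isg15 in a pair of them, and Ifit1 in none. The 200 bases before the RefSeq start site are given 5′ to 3′ on the strand of the gene (GRCm38.p6). Capitals mark matches, on either strand, to the ISRE core (TTTC, any 2 bases, then TTTC) or the GAS core (TTCNNNGAA, with N for any base).
Igtp (chr11:58199356-58199555, plus strand): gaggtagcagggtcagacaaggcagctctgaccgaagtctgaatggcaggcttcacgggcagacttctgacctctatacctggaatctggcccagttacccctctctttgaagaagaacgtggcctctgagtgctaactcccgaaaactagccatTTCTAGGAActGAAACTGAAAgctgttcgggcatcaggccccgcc
Gbp7 (chr3:142530136-142530335, plus strand): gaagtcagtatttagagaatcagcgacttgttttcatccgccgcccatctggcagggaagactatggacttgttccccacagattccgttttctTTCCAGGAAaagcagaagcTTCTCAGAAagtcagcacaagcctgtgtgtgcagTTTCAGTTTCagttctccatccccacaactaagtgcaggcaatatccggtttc
Isg15 (chr4:156200819-156201018, minus strand): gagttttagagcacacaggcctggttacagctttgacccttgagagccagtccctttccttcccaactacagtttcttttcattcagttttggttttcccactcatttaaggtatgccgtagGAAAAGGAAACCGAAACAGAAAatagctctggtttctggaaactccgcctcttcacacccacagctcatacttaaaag
Ifit1 (chr19:34640689-34640888, plus strand): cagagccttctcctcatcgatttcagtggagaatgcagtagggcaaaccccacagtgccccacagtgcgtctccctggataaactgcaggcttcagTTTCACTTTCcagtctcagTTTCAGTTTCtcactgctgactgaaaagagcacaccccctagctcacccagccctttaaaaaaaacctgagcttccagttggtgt
In Igtp a GAS core begins 45 bases and an ISRE core 34 bases before the start. In Gbp7 GAS cores begin at 106 and 87 bases and an ISRE core at 53 bases. Isg15 holds a run of 3 ISRE cores that overlap one another, beginning at 78, 72 and 66 bases. Ifit1 holds a pair of ISRE cores, at 104 and 85 bases, and no GAS core. Windows of Samhd1 and Irgm1 were also searched and are not printed. Samhd1, over the floor in all 3 skin libraries, holds neither core in its 200 bases, and its GAS core lies further upstream. Irgm1, at the floor throughout skin, holds 2 ISRE cores and no GAS core.

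RefSeq promoters (250 bases before to 50 after the start) were listed for 30 of the 39 members, as 35 promoters. The ISRE core was in 54.3% of these 35, beside 3.44% of the 32851 promoters of the table, and the GAS core in 28.6%, beside 8.30%. Both cores were present in 6 members (Oas1a, Bst2, Gbp7, Igtp, Eif2ak2 and Ifitm3) and neither in 8. Of the 10 members with a GAS core, 4 were over the floor in all 3 skin libraries (Igtp, Samhd1, Ifi35 and Ifitm3), 4 in a pair and 2 in 1. Of the 20 members without one, 10 were at the floor throughout skin and 1 was over it in all 3. The 10 genes with a GAS core also had the higher median SDLN level, 81.3 CPM against 48.3 CPM for the 20 others. Of the 18 members with an ISRE core, 7 were at the floor throughout skin and 2 were over it in all 3, and of the 12 without one these numbers were 3 and 3. Here the median SDLN level was lower with the core, at 42.4 CPM against 79.2 CPM. A match describes these letters and not a bound site, and the counts were not tested.

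Transcription factors of the response were led by Irf9 in SDLN and by Irf1 in skin. Irf9 (ENSMUSG00000002325, chromosome 14, 55603571 to 55610030), the DNA-binding subunit of the complex that acts on the ISRE, was at 0, 25.4 and 0.111 CPM in skin libraries A, B and C, and SDLN Tregs held 146, 160.3 and 122 CPM. Every skin library lay below every SDLN library, and the log2 fold change was -4.00 (SE 2.64, edgeR adjusted p 0.344). Without skin Tregs B, which leaves 0 and 1 counts in skin, the adjusted p was 0.00784. Irf1 (ENSMUSG00000018899, chromosome 11, 53770014 to 53778374), a factor that interferon-gamma induces, was at 0, 287 and 32.7 CPM in skin and at 112, 142 and 76.4 CPM in SDLN. One skin library was at 0, one was above and one below all SDLN libraries. Mean levels were 107 ± 157 CPM for skin and 110.2 ± 32.9 CPM for SDLN (SD, n = 3 each), and edgeR put the log2 fold change at 0.057 (SE 2.23, adjusted p 0.995), and its sign turned with TMMwsp and with library size scaling. Irf7, which amplifies the transcription of interferon-alpha genes, had 0 counts in every skin library and was at 75.0, 66.3 and 52.8 CPM in SDLN. At the SDLN mean the skin totals would have given 243, 760 and 585 counts. Irf7 was called higher in SDLN (edgeR adjusted p 0.00806). With every skin library set to 3 counts its SDLN mean was 139.9-fold higher, a value that allows for counting error only.

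ISG15 and its protease were each seen in different skin libraries. Isg15 (ENSMUSG00000035692, chromosome 4, 156199424 to 156200818), a ubiquitin-like protein that is attached to other proteins, was at 0, 50.5 and 96.1 CPM in skin libraries A, B and C, and SDLN Tregs held 25.1, 25.1 and 36.3 CPM. Usp18 (ENSMUSG00000030107, chromosome 6, 121245906 to 121270917), which removes ISG15 and dampens receptor signalling, was at 106, 0 and 0 CPM in skin and at 32.8, 34.3 and 32.2 CPM in SDLN. Over all genes tested, 66.8% of the skin values were at the floor. Skin Tregs A had counts of Usp18 and none of Isg15, and skin Tregs B and C had counts of Isg15 and none of Usp18. Both genes stayed within a narrow range in SDLN. Neither passed the edgeR test: the log2 fold change of Isg15 was 0.99 (SE 2.17, adjusted p 0.870), with a sign that turned without skin Tregs C (-0.25) and with limma voom (-1.47), and that of Usp18 -0.42 (SE 2.74, adjusted p 0.966), with a sign that turned with library size scaling. Without skin Tregs A, which leaves Usp18 at 0 in skin, its adjusted p was 0.00581.

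The IFIT genes lie close together on chromosome 19 and encode proteins that bind viral RNA. Ifit1 (ENSMUSG00000034459, 34640871 to 34650009) had 0 counts in all skin libraries and was at 41.7, 39.2 and 62.2 CPM in the SDLN libraries. Ifit3 had 0 counts in skin as well and was at 17.7, 28.1 and 40.7 CPM in SDLN. Both were called higher in SDLN (edgeR adjusted p 0.00580 for Ifit1 and 0.00388 for Ifit3). With every skin library set to 3 counts the SDLN mean was 103-fold higher for Ifit1 and 62.3-fold higher for Ifit3. Ifit2 (ENSMUSG00000045932, 34550694 to 34576419) had 729 counts, or 62.1 CPM, in skin Tregs B and 0 in skin Tregs A and C, against 31.3, 35.3 and 18.9 CPM in SDLN. The library with Ifit2 stood above all SDLN libraries and the test gave a log2 fold change of -0.39 (SE 2.61, edgeR adjusted p 0.968), which became a call (adjusted p 0.00361) without skin Tregs B. Summed over the family, skin Tregs were at 20.7 ± 35.8 CPM and SDLN Tregs at 105 ± 15.7 CPM (SD, n = 3 each). Ifit3 shares 31.7% of its 100-base stretches with its copy Ifit3b, and reads that lie wholly in such stretches could come from either.

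The OAS family, which includes enzymes that make the second messenger of RNase L on double-stranded RNA, was low in SDLN. Their summed level was 19.6, 27.3 and 10.7 CPM in the SDLN libraries. Oas3 (ENSMUSG00000032661, chromosome 5, 120753098 to 120777661) had the highest mean there, at 7.92, 13.3 and 2.56 CPM, and had 0 counts in skin, where the SDLN mean would have given 30, 93 and 72 counts (edgeR adjusted p 0.00748). Oas1a (ENSMUSG00000052776, chromosome 5, 120896256 to 120907521) had 0, 772 and 1 counts in skin libraries A, B and C, which is 65.7 CPM in skin Tregs B, against 2.82, 3.10 and 2.48 CPM in SDLN. The level of skin Tregs B was far above all SDLN libraries and the others were at the floor, and the log2 fold change was 3.04 (SE 2.44, edgeR adjusted p 0.466). Leaving out skin Tregs B made it a call for SDLN (adjusted p 0.00640). Of its 100-base stretches, 40.9% are shared with Oas1g. Oas2 was at 0.551 to 1.84 CPM in SDLN and at 0 in skin, and was called (edgeR adjusted p 0.0201), whereas limma voom gave 0.0678. Oasl1, with 0 counts in skin and 0.465 to 2.97 CPM in SDLN, missed the threshold (edgeR adjusted p 0.0615), and Oasl2 was at 6.94, 0 and 0.111 CPM in skin and 3.28 to 7.80 CPM in SDLN (adjusted p 0.512).

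The sensors of viral nucleic acids also split between skin libraries. Ddx58 (ENSMUSG00000040296, chromosome 4, 40203773 to 40239828) encodes RIG-I, which detects viral RNA ends, and had 1495, 2 and 2 counts in skin libraries A, B and C. In CPM the first of these was 399, against 53.7, 62.3 and 47.9 CPM in SDLN. The log2 fold change was 0.77 (SE 2.53, edgeR adjusted p 0.925), and without skin Tregs A the gene was called higher in SDLN (adjusted p 0.00581). Zbp1 (ENSMUSG00000027514, chromosome 2, 173206612 to 173218923), a sensor of left-handed nucleic acid that triggers cell death, was at 0, 37.5 and 0 CPM in skin and at 141, 137 and 109 CPM in SDLN. All skin values were below all SDLN values, with a log2 fold change of -3.30 (SE 2.90, edgeR adjusted p 0.518). Without skin Tregs B, the one skin library with counts, its adjusted p was 0.00649. Ifih1, which encodes the long double-stranded RNA sensor MDA5, had 0 counts in skin and was at 39.1, 36.0 and 27.6 CPM in SDLN. It was called higher in SDLN (edgeR adjusted p 0.00355), with a mean 74.0-fold higher when every skin library was set to 3 counts. Eif2ak2, the kinase PKR that halts translation, was at 5.60, 0 and 45.7 CPM in skin and 26.9, 52.9 and 31.5 CPM in SDLN (edgeR adjusted p 0.897). No sensor was over the floor throughout skin.

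GTPases formed the largest role group in SDLN, and their summed levels overlapped between the tissues. The 8 genes summed to 1096, 1479 and 1486 CPM in skin libraries A, B and C and to 1543, 1595 and 1428 CPM in SDLN, or 1354 ± 223 and 1522 ± 85.6 CPM (SD, n = 3 each). Igtp (ENSMUSG00000078853, chromosome 11, 58199556 to 58207591), also known as Irgm3, a GTPase that guards host membranes against intracellular microbes, was at 449, 293 and 470.4 CPM in skin and at 489, 438 and 512 CPM in SDLN. Skin Tregs B was below the other libraries and skin Tregs A and C overlapped SDLN. Mean levels were 404 ± 96.9 CPM for skin and 479.6 ± 37.6 CPM for SDLN (SD, n = 3 each), and edgeR put the log2 fold change at -0.26 (SE 0.480, adjusted p 0.835), the smallest SE among the members. Igtp was called in 0 of 15 alternatives, and its log2 fold change ran from -0.74 to -0.10 over them. Irgm1, a relative of Igtp on the same chromosome (48861968 to 48871683) with a part in autophagy of microbes, gave another picture. It had 0 counts in every skin library and was at 119, 152 and 115 CPM in SDLN, where the skin totals would have given 482, 1509 and 1161 counts at the SDLN mean. It was called higher in SDLN (edgeR adjusted p 0.0114), a call that was lost without any 1 of the SDLN libraries (adjusted p 0.0589 to 0.0649). With every skin library set to 3 counts its SDLN mean was 278-fold higher.

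Guanylate-binding proteins, which coat and break the vacuoles of microbes, are encoded close together on chromosome 3. Gbp7 (ENSMUSG00000040253, 142530342 to 142550149) was at 0, 730.5 and 924 CPM in skin libraries A, B and C, and SDLN Tregs held 365, 446 and 353 CPM. Skin Tregs B and C stood above all SDLN libraries and skin Tregs A, with a total that would have given 1454 counts at the SDLN mean, had none. The log2 fold change was 0.73 (SE 2.14, edgeR adjusted p 0.911), and without skin Tregs A it was 1.10 with an adjusted p of 0.0285. Its sign turned without skin Tregs C (-0.15) and with limma voom (-2.13), where it was no call. Its neighbours took other patterns: Gbp3 was at 608, 0 and 91.3 CPM in skin and 94.2, 107 and 65.0 CPM in SDLN, and Gbp2 at 0, 343 and 0.221 CPM in skin and 134, 134 and 124 CPM in SDLN. Thus each of the 3 genes was at the floor in a different set of skin libraries, and none passed the test (edgeR adjusted p 0.872 for Gbp3 and 0.989 for Gbp2).

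Of the other GTPases, Ifi47 was at 39.2, 113 and 0 CPM in skin and at 300.1, 256 and 229 CPM in SDLN, with no overlap and an edgeR adjusted p of 0.522. Mx1, a dynamin-like protein that traps viral nucleoproteins, had 0 counts in skin and only 2.38, 4.44 and 3.28 CPM in SDLN, where the mean would have given 13, 40 and 30 counts in skin (edgeR adjusted p 0.00351). Iigp1, another immunity-related GTPase, had 1 count in skin Tregs B and was at 40.0, 58.0 and 26.2 CPM in SDLN (edgeR adjusted p 0.00394). So 3 of 8 GTPases (Irgm1, Iigp1 and Mx1) were called higher in SDLN, beside 45.3% of all genes tested, and 5 did not pass.

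**Figure D4:**
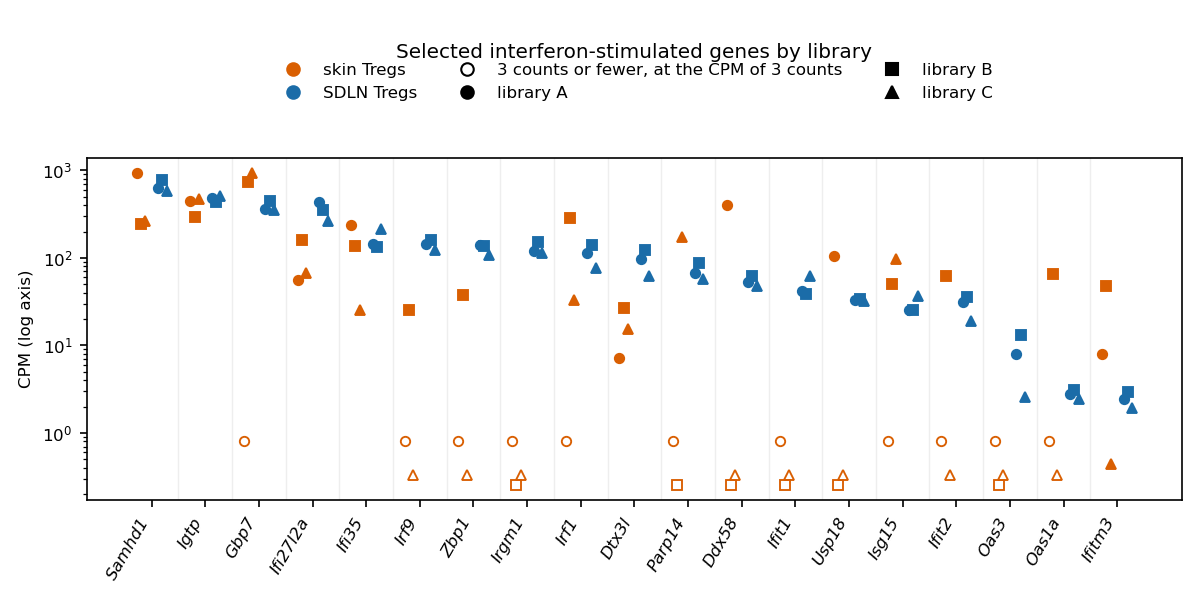
CPM (log axis) of 19 interferon-stimulated genes in skin Tregs (orange) and SDLN Tregs (blue), by library (circle A, square B, triangle C), ordered by the SDLN mean. Hollow symbols are libraries with 3 counts or fewer, drawn at the CPM of 3 counts. SDLN symbols lie close together for most genes, whereas skin symbols of Gbp7, Ddx58 or Oas1a are either above the SDLN libraries or at the floor, and those of Igtp lie beside them.

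ADP-ribosylation and ubiquitin ligases were low in skin Tregs A and B and near the SDLN level in skin Tregs C. Their sums were 18.7, 27.3 and 284 CPM in skin and 319, 379 and 255 CPM in SDLN. Dtx3l (ENSMUSG00000049502, chromosome 16, 35926511 to 35939151), a ubiquitin ligase that works with Parp9, was at 7.20, 27.1 and 15.5 CPM in skin libraries A, B and C, and SDLN Tregs held 96.0, 122 and 62.7 CPM. It was over the floor in all libraries with all skin values below all SDLN values, at a log2 fold change of -2.39 (SE 1.30) that missed the edgeR threshold (adjusted p 0.230) and passed it in DESeq2 (adjusted p 0.00397) and limma voom (adjusted p 0.0373). Parp9, its partner, was at 11.5, 0 and 97.0 CPM in skin and 84.0, 92.3 and 58.3 CPM in SDLN (edgeR adjusted p 0.908). Dtx3l and Parp9 overlap on opposite strands, and the strand setting of the counting is not given in the sources used here. Parp14 (ENSMUSG00000034422, chromosome 16, 35832874 to 35871544), an ADP-ribosyltransferase, had 0, 2 and 1551 counts in skin libraries A, B and C, which is 172 CPM in skin Tregs C, against 67.5, 88.2 and 57.0 CPM in SDLN. Its log2 fold change of 0.038 (SE 2.73, edgeR adjusted p 0.997) turned in sign under every other scaling, and without skin Tregs C it was called higher in SDLN (adjusted p 0.00920). Trim30a, a restraint on inflammatory signalling, had 0 counts in skin and was at 71.2, 76.1 and 76.9 CPM in SDLN. It was called higher in SDLN (edgeR adjusted p 0.00962), with a mean 161-fold higher when every skin library was set to 3 counts.

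Restriction factors summed to 1450.1, 551 and 566 CPM in skin libraries A, B and C and to 698, 850.2 and 664 CPM in SDLN, and the skin libraries lay on both sides of the SDLN range. Samhd1 (ENSMUSG00000027639, chromosome 2, 157097533 to 157135265), which depletes the nucleotides that viruses need for DNA synthesis, had the highest CPM of all members in SDLN at 625, 780.3 and 585 CPM, and was at 930, 244 and 262 CPM in skin libraries A, B and C. Skin Tregs A lay above and skin Tregs B and C below all SDLN libraries. Mean levels were 478 ± 391 CPM for skin and 663 ± 103 CPM for SDLN (SD, n = 3 each), and edgeR put the log2 fold change at -0.68 (SE 0.491, adjusted p 0.395). Without skin Tregs A it was -1.39 with an adjusted p of 0.0163. Bst2 (tetherin), which holds budding virus at the cell surface, was at 512, 78.1 and 0 CPM in skin and had the tightest SDLN values of all members at 52.8, 52.6 and 51.5 CPM (edgeR adjusted p 0.785).

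The interferon-induced transmembrane proteins Ifitm2 and Ifitm3, which block the fusion of viruses with endosomes, had low SDLN levels. Ifitm3 (ENSMUSG00000025492, chromosome 7, 141009586 to 141010770), the smaller of these signals in SDLN, was at 8.003, 47.9 and 0.443 CPM in skin libraries A, B and C, and SDLN Tregs held 2.42, 2.95 and 1.93 CPM. Skin Tregs A and B were above all SDLN libraries and skin Tregs C, with 4 counts, was below them. The log2 fold change was 2.95 (SE 1.49, edgeR adjusted p 0.197). Its size came from skin Tregs B, without which the log2 fold change was 0.30 (edgeR adjusted p 0.837), and limma voom gave 0.48 (adjusted p 0.776). The gene was called higher in skin by DESeq2 (adjusted p 0.0313) and by edgeR without skin Tregs C (log2 fold change 3.39, adjusted p 0.0438). Ifitm2 was at 0, 181 and 304 CPM in skin and at 14.3, 11.9 and 24.2 CPM in SDLN, with a log2 fold change of 3.47 (SE 2.47, edgeR adjusted p 0.389). It was called higher in skin without skin Tregs A, and it shares 34.9% of its 100-base stretches with other loci. Both genes are known to be expressed beyond T cells. The sum of the myeloid markers, most of it Cd74, was 23633 CPM or more in each skin library. The part of other cells in the Ifitm2 and Ifitm3 levels was not tested. Rsad2 (viperin), which makes a nucleotide that ends viral RNA chains, had 0 counts in skin and was at 3.70, 2.43 and 2.16 CPM in SDLN (edgeR adjusted p 0.00388).

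The remaining members have less defined parts in the response. Ifi27l2a (ENSMUSG00000079017, chromosome 12, 103442167 to 103443680), a small mitochondrial and nuclear envelope protein, was at 55.5, 158 and 67.7 CPM in skin libraries A, B and C, and SDLN Tregs held 437, 353 and 266 CPM. All skin libraries held the gene and all were below all SDLN libraries. Mean levels were 93.9 ± 56.3 CPM for skin and 352 ± 85.3 CPM for SDLN (SD, n = 3 each), and edgeR put the log2 fold change at -1.86 (SE 0.806), which passed neither there (adjusted p 0.126) nor in limma voom (adjusted p 0.170), but did in DESeq2 (adjusted p 0.00574). Ifi35 (ENSMUSG00000010358, chromosome 11, 101448407 to 101458698), which binds the interferon-induced protein Nmi, was at 238, 138 and 25.7 CPM in skin and 144, 132 and 212 CPM in SDLN. Its groups overlapped, with a log2 fold change of -0.53 (SE 1.00, edgeR adjusted p 0.837). Rtp4, a chaperone of receptors, was at 0, 0 and 181 CPM in skin and 56.3, 48.6 and 64.2 CPM in SDLN, and Xaf1, a promoter of cell death, at 0, 70.7 and 0 CPM in skin and 50.1, 46.0 and 50.4 CPM in SDLN. Neither passed the test (edgeR adjusted p 0.970 for Rtp4 and 0.904 for Xaf1).

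Per length, the order of the members differed from that in CPM. In CPM per kilobase of exon, mean levels in SDLN were highest for Ifi27l2a at 760.5, followed by Igtp at 237, Ifi47 at 106, Ifi35 at 94.2, Samhd1 at 72.5 and Gbp7 at 69.1. In skin they were highest for Ifitm2 at 247, Bst2 at 218, Ifi27l2a at 203, Igtp at 199.8 and Gbp7 at 98.3. Ifi27l2a, Igtp and Gbp7 were thus among the highest per length in both tissues, while the skin values of Ifitm2, Bst2 and Gbp7 rested on a pair of libraries each.

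The wider interferon pathway was described with 128 other genes from ligands to further induced genes. Of these, 95 were tested and 39 (41.1%) were called higher in SDLN, beside 45.3% of all genes. None was called higher in skin, beside 1.04% of all genes (edgeR, 1 at an unadjusted p under 0.05, against 2 calls in DESeq2 and 0 in limma voom). Of the 39 calls, 37 (94.9%) were at the floor throughout skin, beside 94.4% of all genes called higher in SDLN. The summed level was 6702 to 7946 CPM in skin and 12636 to 15995 CPM in SDLN, a ratio of 0.496. All 21 ligand genes were at the floor in every skin library, and only 1, 2 and 1 were over it in SDLN libraries A, B and C. Of the ligand genes Ifng alone passed the filter, at 3.95, 2.97 and 3.64 CPM in SDLN and 0 counts in skin (edgeR adjusted p 0.00322).

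Receptor chains were seen in skin in part. Ifngr1 was at 0.800, 622 and 385 CPM in skin libraries A, B and C, and SDLN Tregs held 319, 320.2 and 285 CPM (edgeR adjusted p 0.961). Ifnar2, of the receptor for interferon-alpha and interferon-beta, had 0 counts in skin and was at 63.0, 62.7 and 55.3 CPM in SDLN (edgeR adjusted p 0.00721). Ifnar1, the other chain of this receptor, was at 0, 182 and 527 CPM in skin and 272, 318 and 307 CPM in SDLN (edgeR adjusted p 0.993). Of the kinases, Jak1 had the highest mean in both tissues, at 0, 338 and 759 CPM in skin and 1014, 1182 and 752 CPM in SDLN (edgeR adjusted p 0.829).

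Among further induced genes, Shisa5, an endoplasmic reticulum protein linked to cell death, was called while over the floor throughout skin, at 333, 763 and 729 CPM in skin against 3158, 3198 and 2151 CPM in SDLN. Its log2 fold change of -2.12 (SE 0.548) passed in edgeR (adjusted p 0.0217). Ly6e, which blocks entry of some viruses and enhances that of others, was at 1371, 760 and 617 CPM in skin and 1008, 1159 and 1007 CPM in SDLN, with overlap between the groups (edgeR adjusted p 0.472). In the other groups of the list the highest levels were those of Irf2, Pias1, Ptpn6, Tmem173 (the DNA-sensing adaptor STING) and Myd88, none of which passed. Socs1, an inhibitor of Janus kinases that interferon induces, was the other called gene over the floor in a skin library, with 19 counts in skin Tregs B, at 0, 1.62 and 0.111 CPM in skin and 160.1, 148 and 91.9 CPM in SDLN (edgeR adjusted p 0.0385).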

How the data were processed

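The authors trimmed reads with Trimmomatic 0.36, mapped them to mouse build GRCm38 with STAR 2.5.2b and assigned unique reads to exons with featureCounts (Subread 1.5.2). The deposited table holds these raw counts for each Ensembl gene, not normalized. Annotation release, strand setting and handling of duplicate reads are not given in the sources used here.

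Groups were taken from the sample titles, since the tissue field says skin for all samples. Columns carry letters and titles carry numbers, so libraries are named by tissue and letter. Nothing says that the same letter marks the same mice, and same-letter libraries did not deviate together. P-values measure the spread between these samples. No pair of libraries held identical values.

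GENCODE M21 (GRCm38) gave symbols and positions for 49056 genes. Counts were tested with edgeR 4.0.16 in R 4.3.3 (filterByExpr, TMM, glmQLFit with robust estimation, glmQLFTest, tissue as the only term), with Benjamini-Hochberg adjustment over all 13572 genes tested and a threshold of 0.05. No test for it is given in the authors' methods. The edgeR fit was tried on simulated data, where recovery of changed genes was required only at a dispersion far below that of these data. The common dispersion was 2.04. Fold changes are log2, skin over SDLN, and SE was derived from the F statistic. For members at 0 in all skin libraries the fitted value depends on a prior count. The fold with every skin library set to 3 counts is given instead. This fold allows for counting error only and is not a lower bound on the difference between the tissues. CPM is relative to the library total. Shared sequence was counted over 100-base stretches of exons, and promoter motifs were searched in RefSeq promoters (GRCm38.p6) on both strands.

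Members, role groups, the pathway list (130 symbols, 128 found) and the marker lists were chosen with earlier results of these data known, so no list was tested. Per-library values were planned for members over 3 counts in all 3 skin libraries, for the highest member of each role group in each tissue, and for the highest genes of the pathway groups or those called while over 3 counts in a pair of skin libraries or more. Values of the other members and of Ifnar1, Ifnar2 and Socs1 were added after they were seen. Alternatives were other scalings, filters, depths and tests (DESeq2 1.42.0, limma 3.58.1 voom with quality weights) leaving out each library and, added later, a block by column letter.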

Additional observations from a re-analysis of the deposited data

How the results depend on the processing

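Table columns are lettered and titles numbered, with no link between them, so a replicate block by column letter was added after seeing the data. Same-letter libraries did not deviate together (r of 0.017, -0.021 and 0.0714 over 13572 genes for A, B and C). With this block 12 members (all 11 and 1 other) and 37 other pathway genes were called higher in SDLN and 0 of either higher in skin. Of 378 results for 27 members under the alternatives, 323 kept their direction and side of the threshold, 18 gained a call (3 with a turned sign), 4 lost one and 36 turned in sign. The 11 calls for SDLN became 0 with at least 10 counts in every library, which left 5 members to test (2 at an unadjusted p under 0.05), and 18 with limma voom, and ran from 9 to 17 when 1 library was left out. The 0 calls for skin became 1 with DESeq2 (Ifitm3) and ran from 0 to 2 when 1 library was left out (Gbp7 and Ifitm2 without skin Tregs A, Ifitm3 without skin Tregs C). For the other pathway genes the 39 calls for SDLN became 1 (Shisa5) with a minimum of 10 counts per library, which left 5 to test, and ran from 28 to 51 when 1 library was left out. Their 0 calls for skin became 2 with DESeq2 (Ifi204 and Jak2) and ran from 0 to 1 when 1 library was left out (Jak2 without skin Tregs B, Ifi204 without skin Tregs C). The ratio of summed CPM, 0.768, was 0.643 without 8 members that share 1% or more of their stretches (added after seeing the data) and 0.609 without 11 members listed for a copy or relative nearby, a list that leaves out Igtp, Ifit1, Ifit2, Oas2 and Oas3. It was 0.0204 from median log2(CPM + 1) levels, a value set by the 1 added, since the median member was at 0, 0.170 and 0.111 CPM in skin libraries A, B and C. It was 0.725 to 0.800 when 1 library was left out. The detected numbers of members per library stayed within 1.5 times with a minimum of 10 counts and with libraries drawn down to 1 depth.

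The median log2 fold change of all genes moved by -0.12 from TMM to TMMwsp, by -0.078 to library size scaling and by 0.017 to DESeq2 size factors. Signs of single members turned as follows, as log2 fold changes. With limma voom Isg15 was at -1.47, Gbp7 at -2.13, Irf1 at -3.97, Oas1a at -2.08, Ddx58 at -5.15 and Parp14 at -3.77. With the replicate block Isg15 was at -0.18, Gbp7 at -0.35, Irf1 at -1.68, Oas1a at -3.27, Ddx58 at -6.22 and Parp14 at -8.02. With library size scaling Usp18 was at 0.11, Irf1 at -0.043 and Parp14 at -0.30. With TMMwsp Irf1 was at -0.058 and Parp14 at -0.13. Drawn down, Irf1 was at -0.13 and Parp14 at -0.22, and Parp14 was at -0.050 with DESeq2 size factors and with DESeq2 and at -0.022 without the filter. When 1 library was left out, Isg15 ran from -0.25 to 1.37, Usp18 from -13.73 to 0.14, Ifit2 from -13.46 to 0.061, Gbp7 from -0.15 to 1.10, Irf1 from -2.41 to 0.48, Oas1a from -5.13 to 3.49, Ddx58 from -8.10 to 1.33 and Parp14 from -9.53 to 0.62. The lowest values of Usp18, Ifit2, Oas1a, Ddx58 and Parp14 came without the 1 skin library that held the gene, which left skin at the floor. The cause of the other turns was not tested.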
